A study of Mus musculus with 10 samples.

Results

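The constitutive proteasome genes described here code for the core particle and the regulatory cap of the protein-degrading machine of the cell. They were chosen by symbol: every gene whose probe sets carry the single symbol Psma, Psmc or Psmd followed by a number, together with Psmb1, Psmb2, Psmb3 and Psmb4. The rule found 32 genes, with 70 probe sets, of the 18193 genes of the table. A probe set is the group of short array probes that reports 1 transcript. Where a gene had several, the one of the highest mean over all arrays was used. The rule used no difference between groups.

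RNA was measured on Affymetrix mouse expression arrays in 10 mice, 5 in each of 2 groups. All recipients were C57BL/6 mice prepared with total body irradiation and 5-fluorouracil, an antimetabolite. The syngeneic group received C57BL/6 marrow and spleen cells, and the allogeneic group received them from C3.SW donors. In both groups the same leukaemia, named NSTY ALL in the labels (acute lymphoblastic leukaemia), was mixed with the graft. It is of C57BL/6 background, carries the human p210 bcr/abl fusion oncogene and has a deletion in the Ink4a/Arf locus. These 2 lesions are therefore shared by all 10 samples. The leukaemia was passed through 3 serial transplants, each lasting 2 to 3 weeks, then sorted from bone marrow on its GFP marker into Trizol. The labels number the final animals 1 to 5 in each group. They do not say whether animals of a group received cells from the same earlier recipient. The sample titles of allogeneic animals 4 and 5 share the number before the hyphen, which the other allogeneic titles do not. What that number stands for is not given. The tests below treat the 5 animals of a group as independent. The comparison addresses how the allogeneic immune environment is related to gene expression in the leukaemia cells.

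The proteasome is a barrel with caps at its ends. The core barrel is built of stacked rings: the outer alpha rings gate the entrance, and the inner beta rings hold the cutting sites, which belong to Psmb5, Psmb6 and Psmb7. Psmb1 to Psmb4 are beta subunits without cutting sites. The cap has a base, in which ATPases of the Psmc family unfold proteins and thread them into the core, and a lid, which removes the ubiquitin chain that marked the protein. Interferon-gamma induces Psmb8, Psmb9 and Psmb10, which take the places of the cutting subunits in newly built cores. The result is the immunoproteasome, known for making peptides for presentation on class I molecules. In most cells the constitutive genes are expressed all the time, and their transcripts are known to rise together when proteasome activity is blocked.

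The upstream bases of 3 members are shown because these genes had small p-values and represent the core, the cap ATPases and the cap assembly factors. The sequences are the 250 bases before the gene start in RefSeq, build GRCm38.p6, written 5′ to 3′ on the strand of the gene. Capitals mark any match to 4 motifs searched on both strands: TGACNNNGC (the core of the antioxidant response element, which the proteasome gene activator Nfe2l1 binds), CCAAT (bound by NF-Y), CACGTG (an E-box) and GAAANNGAA (the core of the interferon-stimulated response element). The Psmd9 sequence was added after its motifs were seen. The sequences of Psmd11 and Psmb4, whose p-values were smaller than that of Psmd9, held none of the 4 motifs and are not shown.
Psma5, chr3:108256676-108256925, plus strand: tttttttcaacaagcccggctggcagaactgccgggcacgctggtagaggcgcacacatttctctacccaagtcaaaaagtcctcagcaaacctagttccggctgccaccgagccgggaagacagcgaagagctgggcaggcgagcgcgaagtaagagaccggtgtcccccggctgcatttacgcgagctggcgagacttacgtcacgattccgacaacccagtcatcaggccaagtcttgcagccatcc
Psmc2, chr5:21785025-21785274, plus strand: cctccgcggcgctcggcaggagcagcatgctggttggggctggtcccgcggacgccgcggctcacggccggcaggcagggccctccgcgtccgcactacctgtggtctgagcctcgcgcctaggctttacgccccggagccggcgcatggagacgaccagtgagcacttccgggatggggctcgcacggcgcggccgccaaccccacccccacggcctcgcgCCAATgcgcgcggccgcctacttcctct
Psmd9, chr5:123227940-123228189, plus strand: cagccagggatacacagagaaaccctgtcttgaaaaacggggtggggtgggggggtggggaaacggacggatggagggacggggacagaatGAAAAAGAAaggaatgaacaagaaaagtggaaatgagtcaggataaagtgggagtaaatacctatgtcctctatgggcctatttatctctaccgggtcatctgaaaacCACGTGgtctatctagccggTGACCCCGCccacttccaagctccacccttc
The Psma5 window held none of the 4 motifs. In Psmc2 a CCAAT box lay 28 to 24 bases before the start. Psmd9 held 3 of the motifs: the antioxidant element core at 31 to 23 bases, the E-box at 51 to 46 bases and the interferon element core at 159 to 151 bases before the start. RefSeq windows matched 26 of the 32 members. Of these 26, CCAAT was in 11 (42.3%, against 34.5% of all 27025 genes with a window). TGACNNNGC was in 3, namely Psmc6, Psmd12 and Psmd9 (11.5%, against 10.1% of all genes). GAAANNGAA was in 3, Psmb3, Psmd4 and Psmd9 (11.5%, against 7.16%), and CACGTG in 2, Psma4 and Psmd9 (7.69%, against 6.04%). These are matches of letters and do not show binding.

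None of the 32 core and cap genes passed the test for a difference between the groups. In limma's test, with Benjamini-Hochberg adjustment over all 18193 genes and a threshold of 0.05, 0 members were higher and 0 were lower in the allogeneic samples. The background was 0.506% of all genes called higher (92 genes) and 0.077% called lower (14 genes). The members' adjusted p-values ran from 0.316 for Psma5 to 0.996 for Psmd6. At an unadjusted p under 0.05, 0 of 32 members passed, where 16.9% of all genes did (3070 genes). Under 21 other settings of the processing the number of members called stayed at 0, with 0 to 7 at an unadjusted p under 0.05. The share of all genes at that bound was 12.8% to 26.4% over these settings. The count of 7 came with array weights, where the share of all genes was 24.5%. The smallest adjusted p of any member under any of them was 0.0575.

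For 28 of 32 members the 95% confidence interval of the difference lay inside 1.5-fold in either direction, as it did for 29.3% of all genes (5336 genes). Among the 10455 genes above background on all 10 arrays, 4935 met that bound. The members were brighter than these genes, with a median log2 intensity of 12.37 against 9.84, and genes of like brightness were not compared. The members' count was 16 with the probe set of largest variance, 21 with median centring and 22 without allogeneic animals 1, 3 and 4. Above background means above the 95th percentile of 27 control probe sets on the same array. Psmd9, Psmd10 and Psmd7 reached past 1.5-fold but not past 2-fold, and Psma8, which was not above background, past both.

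All differences below are allogeneic minus syngeneic, on the log2 scale of quantile-normalized intensities. The median difference of the 32 members was 0.08, beside 0.01 for all genes, and 25 of 32 were above 0, beside 51.2% of all genes. Without quantile normalization the members' median was 0.03, beside 0.06 for all genes, and 19 of 32 were above 0. With each array centred on its median instead, it was -0.01, beside 0.02 for all genes, and 15 of 32 were above 0. In both of these settings the members' median lay below that of all genes. With allogeneic animal 1, 2, 3, 4 or 5 left out the members' median was 0.15, 0.05, 0.13, 0.05 and 0.04. The median of all genes was then 0.04, -0.01, 0.01, 0.01 and -0.01. By role, the median of the members above background was 0.14 for 7 alpha ring genes, 0.10 for 4 beta ring genes and 0.05 for 6 ATPases. It was 0.03 for the 3 scaffold and receptor genes of the base, 0.03 for the 8 lid genes and 0.30 for the 3 assembly factors. In bulk RNA, fewer cells of a type and less RNA per cell cannot be told apart.

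**Figure D1:**
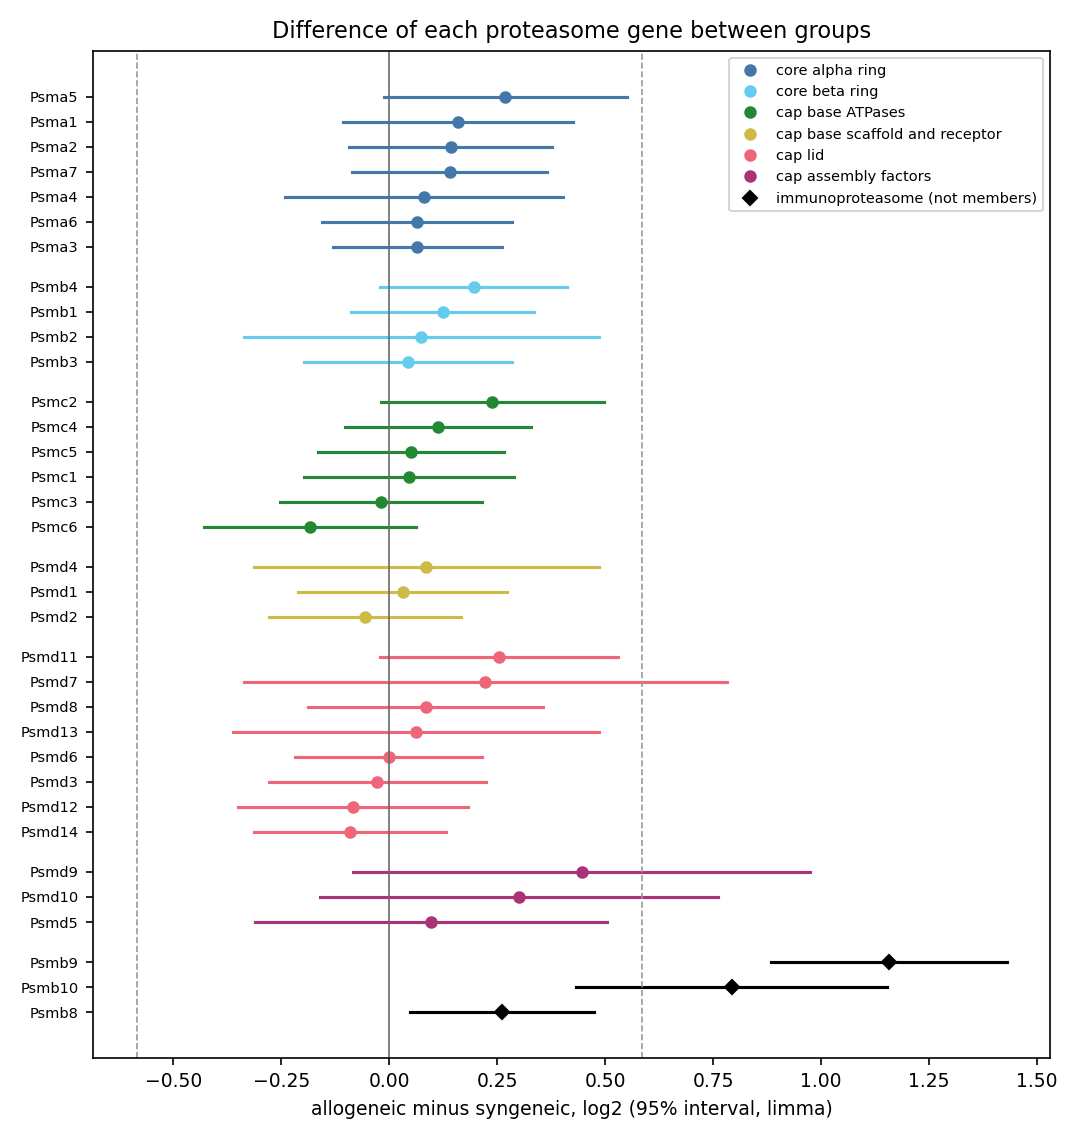
Difference of each core and cap gene between the groups (allogeneic minus syngeneic, log2; points) with its 95% confidence interval from limma, coloured by role; Psma8 is left out because it was not above background. Dashed lines mark 1.5-fold. Every interval of the 31 members crosses 0, whereas those of the 3 immunoproteasome genes at the bottom (diamonds) do not; of these only Psmb9 passed after adjustment, and the members' median turns to -0.01 with median centring.

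The alpha ring holds 7 genes expressed in most tissues, Psma1 to Psma7, and Psma8, a testis-specific relative of Psma7. Psma5 had the smallest p of all members. It measured 12.61, 12.29, 12.81, 12.65 and 12.53 in syngeneic animals 1 to 5, and 12.84, 12.96, 12.64, 12.98 and 12.82 in allogeneic animals 1 to 5. Allogeneic animal 3 lay inside the syngeneic range and the other 4 above it. The means were 12.58 ± 0.19 and 12.85 ± 0.14 (SD, n = 5 each), a difference of 0.27 (SE 0.13, 95% interval -0.01 to 0.55), which did not pass (limma adjusted p = 0.316). A second probe set of Psma5, as bright, gave 0.03.

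The other 6 expressed alpha genes differed by 0.06 to 0.16. Psma1 gave 0.16 (interval -0.11 to 0.43), Psma2 0.14 (interval -0.09 to 0.38) and Psma7 0.14 (interval -0.09 to 0.36). Psma4 gave 0.08, and Psma3 and Psma6 0.06 each; with median centring these last 3 genes were on the other side of 0. The narrowest spread was that of Psma3, which had an SD of 0.03 in the syngeneic group and 0.06 in the allogeneic one. Psma8 was above background on none of the 10 arrays. Its values of 0.62, 1.02, 1.85, 0.00 and 0.42 in syngeneic animals 1 to 5 and 3.52, 0.00, 3.11, 1.48 and 2.34 in allogeneic animals 1 to 5 were below the background limits of 4.50 to 5.32, so no fold is given.

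Among the beta ring genes without cutting sites, Psmb4 was the 1 member whose groups did not overlap, a pattern that 4.83% of all genes had (879 genes). Its values were 12.60, 12.56, 12.69, 12.71 and 12.67 in syngeneic animals 1 to 5 and 12.74, 12.94, 12.74, 12.83 and 12.96 in allogeneic animals 1 to 5. The gap between the highest syngeneic and the lowest allogeneic animal was narrow. Means of 12.65 ± 0.07 and 12.84 ± 0.11 (SD, n = 5 each) differed by 0.20 (SE 0.10, interval -0.02 to 0.41), or 1.15-fold, which did not pass (limma adjusted p = 0.341). The second Psmb4 probe set gave 0.23. Psmb1 gave 0.12 (interval -0.09 to 0.34), Psmb2 0.07 (interval -0.34 to 0.49) and Psmb3 0.04 (interval -0.20 to 0.28); Psmb2 and Psmb3 were below 0 with median centring.

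The 6 ATPases of the cap base differed by -0.18 to 0.24. Psmc2 measured 11.65, 11.61, 11.93, 11.60 and 11.83 in syngeneic animals 1 to 5 and 11.81, 12.15, 11.87, 12.05 and 11.94 in allogeneic animals 1 to 5. Syngeneic animals 3 and 5 reached into the allogeneic range. The means, 11.73 ± 0.15 and 11.96 ± 0.14 (SD, n = 5 each), differed by 0.24 (SE 0.12, interval -0.02 to 0.50), which did not pass (limma adjusted p = 0.333). Psmc6 had the lowest difference of the expressed members. It measured 12.42, 12.54, 12.39, 12.49 and 12.49 in syngeneic animals 1 to 5 and 12.33, 12.36, 12.07, 12.49 and 12.16 in allogeneic animals 1 to 5. Allogeneic animals 1, 2, 3 and 5 lay below the syngeneic range and animal 4 within it. Its means of 12.47 ± 0.06 and 12.28 ± 0.17 (SD, n = 5 each) differed by -0.18 (SE 0.11, interval -0.43 to 0.06; limma adjusted p = 0.427). Psmc4 gave 0.11, Psmc5 0.05, Psmc1 0.05 and Psmc3 -0.02, each with an interval inside 1.5-fold; Psmc5 and Psmc1 were below 0 with median centring.

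The base also holds the large scaffolds Psmd1 and Psmd2 and the ubiquitin receptor Psmd4. Psmd4 measured 11.46, 11.83, 11.55, 11.89 and 11.87 in syngeneic animals 1 to 5 and 11.42, 11.99, 11.44, 12.10 and 12.07 in allogeneic animals 1 to 5. In both groups animals 1 and 3 were low and the other 3 high. The means of 11.72 ± 0.20 and 11.80 ± 0.34 (SD, n = 5 each) differed by 0.09 (SE 0.18, interval -0.31 to 0.49; limma adjusted p = 0.847). Psmd1 gave 0.03 (-0.06 with median centring) and Psmd2 -0.06.

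In the lid, whose enzyme Psmd14 cuts ubiquitin chains from arriving proteins, 4 of 8 genes were above 0 and 4 below. Psmd11, a lid scaffold subunit, measured 10.81, 11.18, 10.85, 10.86 and 11.07 in syngeneic animals 1 to 5 and 11.12, 11.41, 11.07, 11.36 and 11.09 in allogeneic animals 1 to 5. Syngeneic animals 2 and 5 lay inside the allogeneic range, animal 5 at its lower end. The means of Psmd11, 10.95 ± 0.16 and 11.21 ± 0.16 (SD, n = 5 each), differed by 0.25 (SE 0.12, interval -0.02 to 0.53), which did not pass (limma adjusted p = 0.332). A second probe set of Psmd11, about as bright, gave -0.08. Its dimmer probe sets above background on all arrays gave 0.10 to 0.61. Psmd7 gave 0.22 with a wide interval of -0.34 to 0.78, Psmd8 0.08 and Psmd13 0.06; Psmd8 and Psmd13 were below 0 with median centring. Psmd14 gave -0.09 (interval -0.31 to 0.13), Psmd12 -0.08 (interval -0.35 to 0.18) and Psmd3 -0.03. Psmd6 had the same mean in both groups to 2 decimals, 12.64, with an interval from -0.22 to 0.22.

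Psmd5, Psmd9 and Psmd10 help to assemble the cap and are not part of the finished particle. Psmd9 had the largest difference of the expressed members. It measured 8.77, 8.96, 9.01, 9.30 and 9.21 in syngeneic animals 1 to 5 and 8.68, 9.53, 9.48, 9.72 and 10.07 in allogeneic animals 1 to 5. Allogeneic animal 1 was the lowest of all 10 and the other 4 were above every syngeneic animal. With means of 9.05 ± 0.21 and 9.50 ± 0.51 (SD, n = 5 each), the difference of 0.45 (SE 0.24) had an interval of -0.08 to 0.97, up to 1.96-fold, and did not pass (limma adjusted p = 0.376). Psmd10, also known as the oncoprotein gankyrin, measured 9.82, 10.14, 9.94, 10.36 and 10.02 in syngeneic animals 1 to 5 and 9.75, 10.45, 10.21, 10.92 and 10.45 in allogeneic animals 1 to 5. Here too allogeneic animal 1 was the lowest of all. The means of 10.06 ± 0.20 and 10.36 ± 0.42 (SD, n = 5 each) differed by 0.30 (SE 0.21, interval -0.16 to 0.76; limma adjusted p = 0.489). Psmd5 gave 0.10 (interval -0.31 to 0.50).

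**Figure D2:**
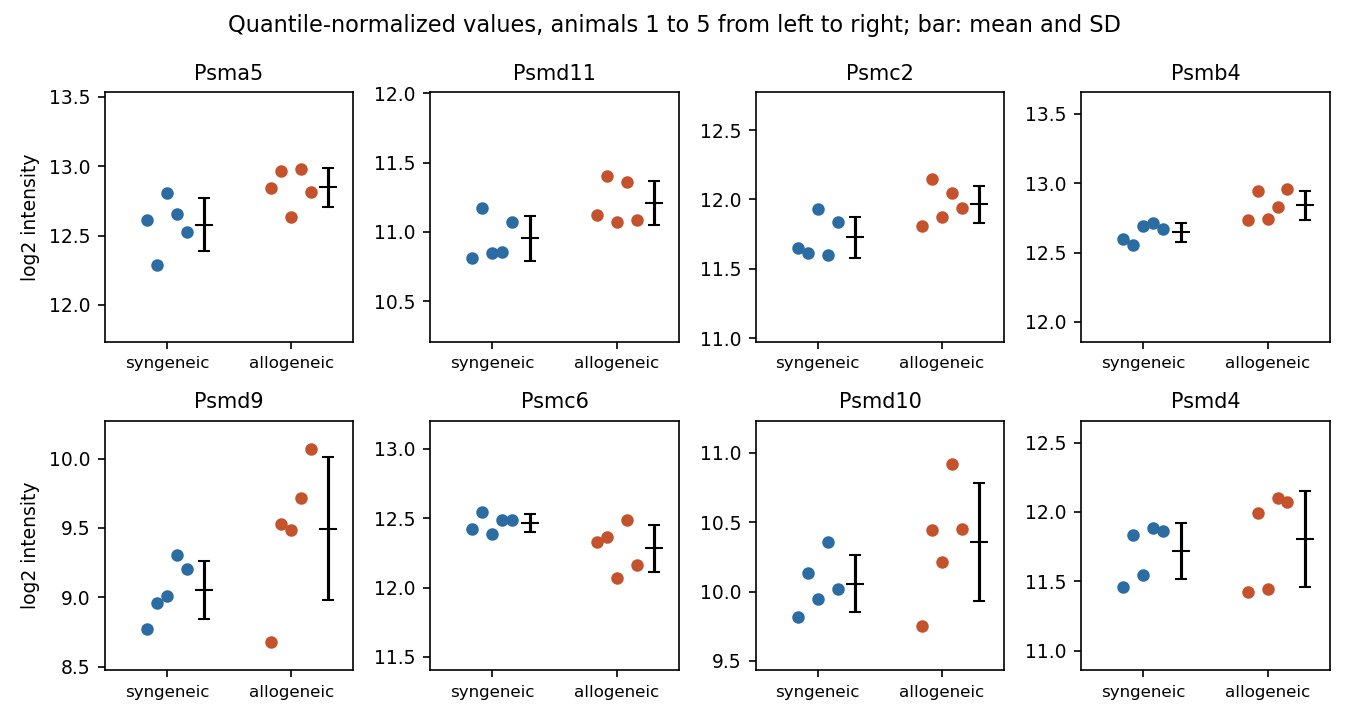
Quantile-normalized log2 intensity of the 8 expressed members shown by animal (points, animals 1 to 5 from left to right) with group mean and SD (bars), 5 syngeneic and 5 allogeneic animals each. The axes all span the same log2 range but start at different levels. The groups overlap for every gene but Psmb4, and Psmd9 and Psmd10 have 1 low allogeneic animal, number 1.

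The spread between animals was small and larger in the allogeneic group. Over the 31 expressed members the median SD was 0.09 in the syngeneic group and 0.15 in the allogeneic group, and 27 of 31 had the larger SD in the allogeneic group. Over all 10455 genes above background the medians were 0.17 and 0.31, and 85.7% had the larger SD in the allogeneic group. The members shared this feature with the other genes, at a lower level of spread. They were also brighter, with a median log2 intensity of 12.37 against 9.84 for those 10455 genes. Genes of like brightness were not set beside them, so the lower spread cannot be called particular to the members. Whether the spread differed between groups was not tested.

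The members also moved together from animal to animal within a group. Taken against each gene's syngeneic mean, the median of the 31 members was -0.07, 0.04, -0.08, 0.06 and 0.05 in syngeneic animals 1 to 5 and -0.12, 0.19, -0.02, 0.18 and 0.20 in allogeneic animals 1 to 5. Animals 1 and 3 were low in both groups. Of the 31 members, 25, 13, 25, 8 and 6 lay below their own group's mean in syngeneic animals 1 to 5, and 28, 3, 28, 6 and 8 in allogeneic animals 1 to 5. Over all genes above background that share was 40.1% to 58.4% in every animal. Allogeneic animal 1 was the lowest of its group for 18 members and animal 3 for 9, while animal 5 was the highest for 14 and animal 4 for 11. These animals were picked out after their values were seen, and no test was made of them. Psmb2 shows the pattern in 1 gene, with 11.51, 11.75, 11.51, 11.92 and 11.81 in syngeneic animals 1 to 5 and 11.26, 11.87, 11.54, 12.11 and 12.08 in allogeneic animals 1 to 5. Outside the set, Psmb5, Psmb6 and Psmb7 were also lowest in animals 1 and 3 of the allogeneic group. In the syngeneic group this held for Psmb5 and Psmb6 but not for Psmb7. Psme4, a core activator, went the other way and was highest in allogeneic animals 1 and 3. Genes of like brightness were not compared, so the pattern cannot be called particular to the members.

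**Figure D3:**
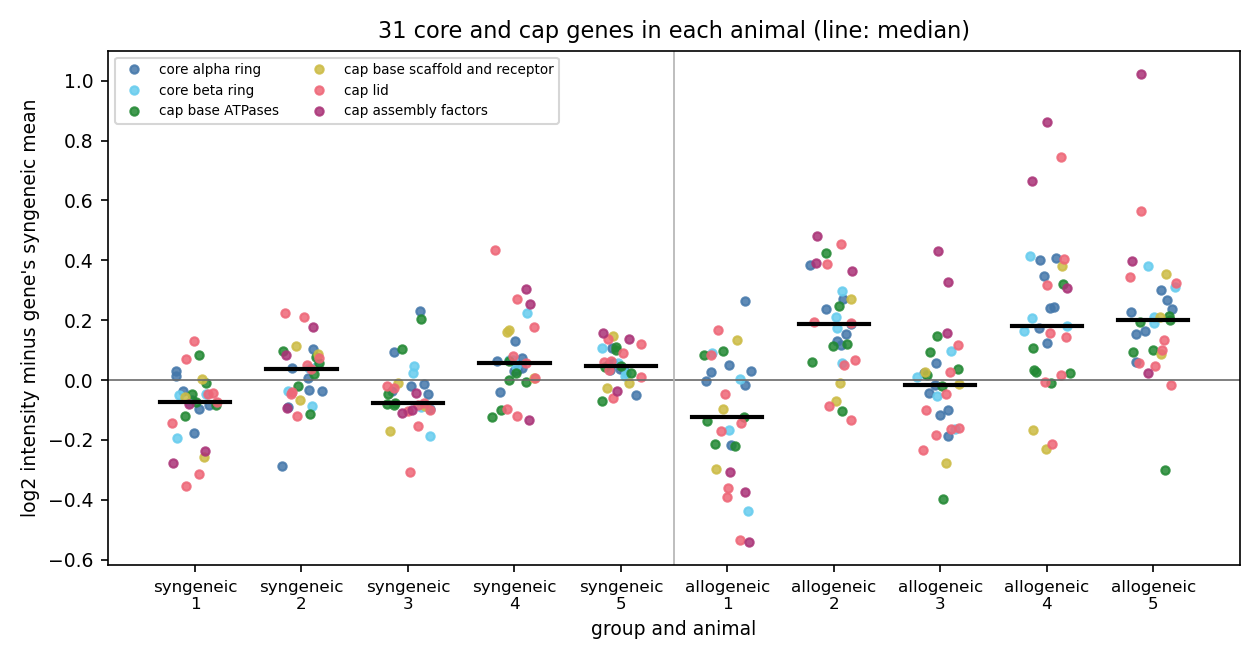
Log2 intensity of each of the 31 expressed core and cap genes in each animal, minus that gene's syngeneic mean (points, coloured by role), with the median of the 31 genes (black line) for 5 syngeneic and 5 allogeneic animals. Allogeneic animals 1 and 3 have medians of -0.12 and -0.02, and animals 2, 4 and 5 have 0.19, 0.18 and 0.20.

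Other measures of the same arrays followed this order only in part. The ratio of the 3' to the 5' control probe sets of actin, which is higher in more degraded RNA, was 1.68, 1.53, 1.48, 1.38 and 1.43 in syngeneic animals 1 to 5 and 1.60, 1.48, 1.72, 1.44 and 1.49 in allogeneic animals 1 to 5. Within the allogeneic group animals 1 and 3 had the highest ratios; in the syngeneic group animal 1 did, while animal 3 lay below animal 2. The same ratio for Gapdh was 1.53 and 1.57 in those animals, 1.39 to 1.47 in the other 3 and 1.48 to 1.59 in the syngeneic group. The lower quartile of the deposited intensities was 18.7 to 19.5 in allogeneic animals 1, 3 and 4, against 13.8 to 14.4 in the other 7. Of these 3 raised arrays, the members were low in animals 1 and 3 and high in animal 4. Without these 3 arrays the members' median difference was 0.21, beside 0.09 for all genes, with 29 of 32 members above 0 and 0 called. Markers of macrophages and monocytes had a median offset of -0.01, 0.24, 0.06, 0.15 and -0.07 in syngeneic animals 1 to 5, which did not follow the members' order, and of -0.33, 0.54, 0.02, 0.48 and 0.59 in allogeneic animals 1 to 5, where animals 1 and 3 were again the lowest. Of these 10 markers 9 were above background on some array, Cx3cr1 on none, and 0 were called between the groups. Their summed level was 8886 to 11274 intensity units in the syngeneic and 12361 to 14151 in the allogeneic animals. That sum rests mostly on the brightest markers, Mpeg1 and Fcgr3, with differences of 0.68 and 0.21. Of the 10 markers 5 were above 0, while Csf1r, Cd68, C1qa, C1qb and Cx3cr1 were below 0. The part of RNA quality, of the raised low end and of other cells in these differences was not tested.

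Markers of B-lymphoid progenitors, the cell type most acute lymphoblastic leukaemias resemble, were present in every sample. Of 13 listed markers 11 were measured and 10 were above background on all 10 arrays, with 0 called between groups. Their summed level was 61425 to 63642 intensity units in the syngeneic and 63610 to 65048 in the allogeneic animals. NK cell markers summed to 683 to 982 units in the syngeneic and 959 to 1673 in the allogeneic animals, with Eomes, Klrk1 and Ncr1 above background on no array. The sum rests on Gzma, with a difference of 1.06, and Prf1, which went the other way with -0.20. Markers of mature B and plasma cells summed to 2710 to 4789 and 1605 to 3481 units, with 0 of 6 genes above 0 in difference. T cell markers summed to 133 to 173 and 122 to 196 units, erythroid markers to 116 to 138 and 109 to 162, and granulocyte markers to 1920 to 4773 and 1285 to 7628. None of these lists had a called gene, and the part of such cells was not tested.

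Outside the core and cap set, the other proteasome genes numbered 23 measured of 27 listed. Of these 1 rose in the allogeneic samples, Psmb9, and 0 fell, with a median difference of 0.06. Psmb9, an interferon-induced cutting subunit, measured 11.22, 11.47, 11.46, 11.57 and 11.50 in syngeneic animals 1 to 5 and 12.45, 12.72, 12.36, 12.78 and 12.69 in allogeneic animals 1 to 5. Every allogeneic animal was above every syngeneic one. The difference was 1.16 (SE 0.12), or 2.23-fold, and passed (limma adjusted p = 0.00211). The adjusted p was 1.6e-05 to 0.0627 over the 21 other settings: median centring (0.0627) and a block on the animal number (0.0589) ended the call.

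The other 2 immunoproteasome subunits did not pass. Psmb10 measured 11.23, 11.72, 11.40, 11.62 and 11.62 in syngeneic animals 1 to 5 and 11.86, 12.53, 12.26, 12.35 and 12.56 in allogeneic animals 1 to 5. Its groups did not overlap, and the difference was 0.79 (SE 0.16; limma adjusted p = 0.0660; 0.00919 to 0.190 over the 21 other settings, of which 7 called it). Psmb8 measured 12.03, 12.13, 12.12, 12.08 and 12.21 in syngeneic animals 1 to 5 and 12.25, 12.43, 12.36, 12.34 and 12.50 in allogeneic animals 1 to 5. These groups did not overlap either, by a narrow gap, and differed by 0.26 (SE 0.10; limma adjusted p = 0.216). The constitutive cutting subunits that they replace gave -0.02 for Psmb5, 0.12 for Psmb6 and 0.16 for Psmb7. Psmf1, an inhibitor of the core, measured 9.11, 9.25, 9.31, 9.39 and 9.18 in syngeneic animals 1 to 5 and 9.38, 10.04, 9.65, 9.91 and 10.41 in allogeneic animals 1 to 5. Its difference of 0.63 (SE 0.18) did not pass (limma adjusted p = 0.149; 0.0266 to 0.937 over the 21 other settings). It was called under 3 of them: with array weights, with allogeneic animal 1 left out, and with the 3 arrays of raised lower quartile left out. With the mean over its probe sets Psmf1 gave 0.06, and with the probe set of largest variance -0.28.

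The relation of the immunoproteasome genes to the core and cap genes was tested within each array, as the log2 ratio of the 2 quantile-normalized intensities. A single scaling factor for a whole array cannot shift this ratio, but quantile normalization can. Without it the Psmb9 gains given below began at 0.65 in place of 0.71. An exact two-sided permutation test over all 252 splits of the 10 animals was run for 93 pairs, with Benjamini-Hochberg adjustment over them. The smallest p it can give is 0.00794. Psmb9 gained on 31 of 31 expressed members, by 0.71 against Psmd9 up to 1.34 against Psmc6, and in all 31 pairs the groups did not overlap (adjusted p = 0.0121, exact permutation test). Psmb10 gained on 29 of 31, by 0.49 to 0.98. The exceptions were Psma5, with a difference of 0.52, and Psmd9, with 0.35 (adjusted p = 0.0583 each, exact permutation test). Psmb8 gained on 14 of 31, by 0.14 to 0.44, and its differences over all 31 began at -0.18. The pairs of one immunoproteasome gene share that gene's values, so they are not independent. The differences of these genes and of the members were known before, and the ratios largely restate them. The same ratios to all other genes were not computed, so the counts show nothing particular to the core and cap genes.

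**Figure D4:**
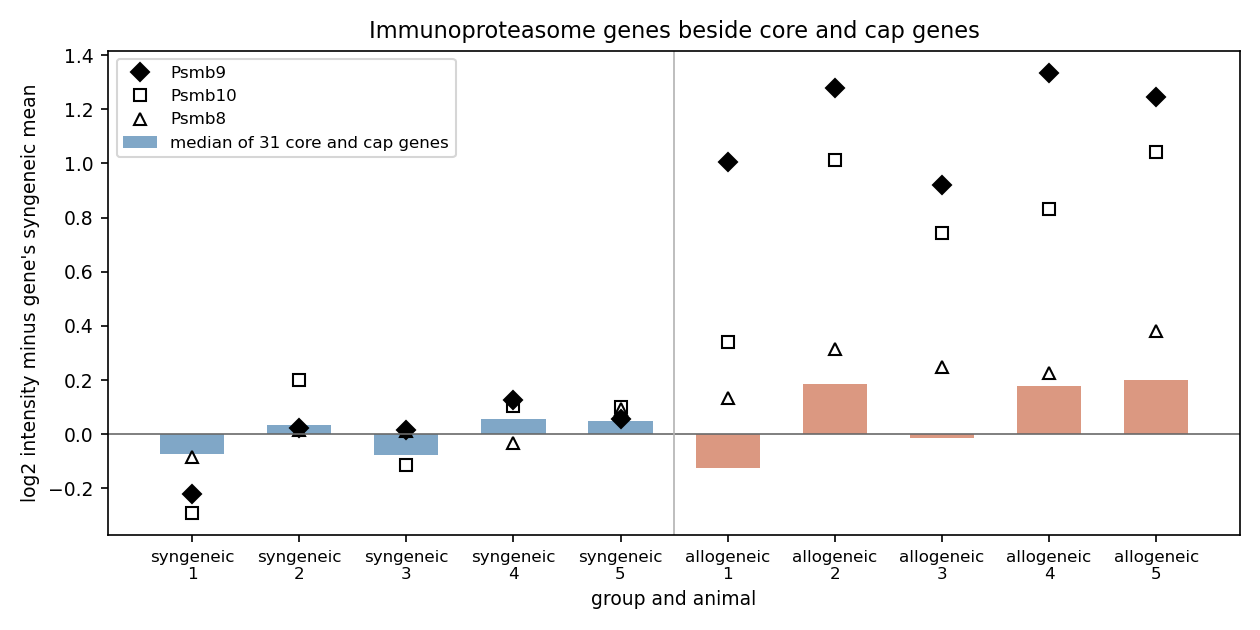
Log2 intensity in each of 5 syngeneic and 5 allogeneic animals, minus the gene's syngeneic mean, for Psmb9, Psmb10 and Psmb8 (symbols), beside the median of the 31 expressed core and cap genes (bars from 0). In every allogeneic animal the 3 symbols lie above the bar, which runs from -0.12 to 0.20.

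Genes that supply ubiquitin or deliver marked proteins to the cap were measured for 10 of the 16 listed. None passed in limma's test (0 higher, 0 lower), their median difference was -0.09 and 2 of 10 were above 0. The 4 of the smallest p were Zfand5, which binds the proteasome, with -0.25 (limma adjusted p = 0.343), Uba6, a ubiquitin-activating enzyme, with -0.57 (adjusted p = 0.387), Nsfl1c, a cofactor of the unfolding enzyme Vcp, with 0.21 (adjusted p = 0.400), and Ubqln4, a shuttle factor, with -0.21 (adjusted p = 0.404). The Uba6 value rests on allogeneic animal 5 at 9.71, where the other 4 allogeneic animals were at 11.16 to 11.45. Nfe2l1, the activator of proteasome genes named above, gave -0.01.

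Counting every probe set gave the same number of calls. Of the 70 probe sets of the 32 genes, 0 were called in either direction when all 45101 probe sets were tested. That adjustment also covered controls and probe sets with several symbols or none. Of the members 19 had several probe sets and 13 had 1. Of the probe sets not chosen, 32 were above background on all arrays. Of these, 13 bright ones, with a mean log2 intensity above 10, gave differences from -0.08 to 0.38. In 10 of the 19 genes a probe set above background on all 10 arrays had the opposite sign to the chosen one. Most of these were dim: a Psma1 probe set with a mean of 6.70 gave -0.93, where the chosen one, with a mean of 12.43, gave 0.16. The smallest adjusted p was that of a dim Psmd2 probe set above background on 5 of 10 arrays, which gave -1.50 (limma adjusted p = 0.0508), where the chosen one gave -0.06. The chosen probe sets of Psmc2 and Psmb4 carry the suffix that marks probes able to bind other transcripts, and that of Psmd11 a suffix for probes shared by several transcripts. These values may hold signal from more than 1 gene.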

How the data were processed

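RNA was measured on Affymetrix arrays in 10 sorted leukaemia samples. The authors deposited linear intensities, 1 for each probe set on each array; the labels and the table do not say how they were summarised or scaled. Precision is limited by how many arrays there are. Of 45101 probe sets, 34945 had a single symbol in GEO's platform annotation, 932 several, 9160 none and 64 were controls; symbols were updated through RefSeq gene IDs. Intensities were taken to log2, quantile-normalized and reduced to 1 probe set per gene, that of the highest mean. No gene was filtered out. R 4.3.3 and limma 3.58.1 (lmFit, eBayes) compared the groups over all 18193 genes, with Benjamini-Hochberg adjustment. The fit was first tested on simulated data.

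The labels number separate animals in each group, so p-values rest on the spread from animal to animal. All core and cap genes are reported. Values by animal are given for the 8 members of the smallest p and for the largest difference in each role. From the 2 other gene lists, called genes and the 4 of the smallest p were named. Psmb2, Psmb5, Psmb6, Psmb7, Psme4 and Nfe2l1 were named outside that rule, after their values were seen. The members and lists were chosen with earlier results of these data known. Alternatives covered the normalization, the probe set of a gene, filters, a pseudocount of 16, the variance model, a block on the animal number and left-out arrays; those for the within-array ratios were chosen after seeing the data. The labels do not say that equal numbers pair the animals, and the groups were compared as unpaired. The deviations of same-numbered animals correlated between -0.21 and 0.35 over 10455 genes, with 0.26 for number 1 and 0.35 for number 2. These values cannot settle whether animals were paired.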

Additional observations from a re-analysis of the deposited data

Results flagged for a closer look

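In 9 cases 1 animal stood far from the other 4 of its group by Dixon's criterion, among 130 groups of 5 values tested, 64 of them of core and cap genes. Chance alone marks about 1 in 20 groups. Both core and cap genes with such a value had it in syngeneic animal 4. The lid subunit Psmd8 measured 13.0 there, where the others lay at 12.76 to 12.79, and the scaffold Psmd1 measured 11.98, where the others lay at 11.75 to 11.81. Leaving that animal out left both uncalled.

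The other 7 values belong to related genes. Psme3, a core activator, measured 11.83 in allogeneic animal 3, the others 11.67 to 11.72. Ecpas, an adaptor that binds the proteasome, measured 11.90 in allogeneic animal 1, the others 11.36 to 11.42. Psmg1, a chaperone of core assembly, measured 9.65 in allogeneic animal 1, the others 10.54 to 10.84. Nfe2l1 measured 11.02 in syngeneic animal 3, the others 11.32 to 11.34. Uba6 measured 9.71 in allogeneic animal 5, the others 11.16 to 11.45. Ubqln1, a shuttle factor, measured 12.16 in allogeneic animal 3, the others 11.66 to 11.79. Ufd1, a cofactor of Vcp, measured 11.35 in allogeneic animal 5, the others 11.10 to 11.14. All 9 values were above the background limit of their array.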

How the results depend on the processing

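The count of core and cap genes called stayed at 0 in each direction under all 21 alternatives. Their median difference was 0.08, beside 0.01 for all genes. It was 0.03 without quantile normalization (all genes 0.06) and -0.0088 with median centring (all genes 0.02). It was 0.17 with array weights (all genes 0.03) and 0.21 without allogeneic animals 1, 3 and 4 (all genes 0.09). With 1 animal left out it ran from 0.04 to 0.15. The number with an interval inside 1.5-fold was 16 with the probe set of largest variance, 21 with median centring, 22 without the same 3 animals and 26 to 29 with 1 animal left out. The labels do not say that the numbers pair the animals. With the animal number as a replicate block the members' median was 0.08 and 0 were called. Calls over all genes went from 92 higher and 14 lower to 14 and 0. Of the 32 members 12 kept their sign throughout. Most of the others were near 0 or had a dim second probe set, and none was called on either side. Psmc6, at -0.18, changed sign with a second probe set that had a mean of 9.89 and was above background on all 10 arrays. Without quantile normalization Psma3 gave -0.011, Psma6 -0.0029, Psmb3 -0.018, Psmc1 -0.019, Psmc5 -0.011 and Psmd1 -0.023. With median centring Psma3 gave -0.046, Psma4 -0.015, Psma6 -0.037, Psmb2 -0.0050, Psmb3 -0.052, Psmc1 -0.053, Psmc5 -0.046, Psmd1 -0.057, Psmd13 -0.013 and Psmd8 -0.018. With the mean over probe sets Psma1 gave -0.45, Psma3 -0.011, Psma5 -0.060, Psma6 -0.11, Psmc1 -0.55, Psmc2 -0.040 and Psmd6 0.078. With the probe set of largest variance Psma1 gave -1.10, Psma3 -0.087, Psma5 -0.48, Psma6 -0.63, Psmc1 -1.14, Psmc2 -0.48, Psmc6 0.018, Psmd6 0.16, Psmd9 -0.19 and Psmf1 -0.28. Array weights gave Psmc3 0.0081, Psmd6 0.047 and Psmb5 0.050. Without the 3 allogeneic arrays of raised low end Psmc3 gave 0.080, Psmd12 0.055, Psmd2 0.0086, Psmd6 0.024 and Psmb5 0.095. When 1 animal was left out in turn, Psmd13 ran from -0.017 to 0.17, Psmd3 from -0.066 to 0.019, Psmc3 from -0.049 to 0.032, Psmd6 from -0.041 to 0.039, Psmb2 from -0.011 to 0.20, Psmd1 from -0.014 to 0.080 and Psmb5 from -0.045 to 0.054. Within arrays, Psmb9 gained on 28 of 31 members with the probe set of largest variance and on 31 of 31 with any animal left out. Psmb8 gained on 9 with the mean over probe sets, on 8 with the probe set of largest variance and on 11 to 15 with 1 animal left out. Psmb10 gained on 20 with the probe set of largest variance and on 28 to 31 with 1 animal left out. Without the 3 arrays, where the smallest unadjusted p is 0.0476, the counts were 0 for Psmb9, Psmb10 and Psmb8, and all 31 Psmb9 differences were above 0. The cause of these shifts was not tested. Background noise limits what the dim Psma8 probe set can show.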
